A study of Arabidopsis thaliana with 25 samples.

Results

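Cotyledons, the seed leaves, of dark-grown Arabidopsis thaliana seedlings were compared after 24 h and after 1 h of continuous light. The comparison took the 5 wild-type libraries labelled 24h and the 5 labelled 1h, 10 of the 25 libraries of the series, joined in 5 pairs by the replicate number that both labels carry. All seedlings were wild type, had grown for 5 days in darkness on half-strength MS medium and differed in the time of light that followed. The other libraries came from seedlings kept dark (D), from seedlings given 6 h of light and from seedlings grown in long days (L), and were used here only to place a level within the series. After acetone fixation the cotyledons were dissected, and Drosophila cells went in before the RNA was extracted and sequenced as stranded paired-end libraries, so that fly transcripts serve as a measure against which plant RNA can be set. The labels call the replicates biological but give no growth dates, and a p-value here reflects no more than the spread among these libraries. The 24 h seedlings were also 23 h older, and no dark group of that age was part of the comparison, so light and age cannot be told apart. The interval of 23 h puts both groups near the same point of a 24 h day.

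In a dark-grown seedling the cotyledons live on stored oil and hold etioplasts, plastids that carry the chlorophyll precursor protochlorophyllide but no working photosystems. Light read by phytochromes and cryptochromes takes down the repressors COP1 and the phytochrome-interacting factors and lets HY5 and related factors act, after which etioplasts turn into chloroplasts and the cotyledons open and expand. An hour of light falls in the early signalling phase, whereas by 1 day the cotyledons are green. The circadian clock runs through the same period: morning genes such as CCA1 and LHY repress evening genes such as TOC1, whose products in turn repress the morning genes.

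Libraries held 20565079 to 23964895 counts at 24 h and 17901840 to 23615857 counts at 1 h. Drosophila genes took 0.352% to 0.939% of the counts in 24 h libraries, which is 74941 to 203390 counts, and 1.01% to 3.04% in 1 h libraries, which is 181692 to 717717 counts. Levels below are spike-scaled CPM, counts scaled to a library size that the Drosophila counts set, and the values of a group are listed in the order of replicates 1 to 5. Replicates 1 and 2 stood apart from replicates 3 to 5 in their plastid reads. The plastid share of Arabidopsis counts was 1.35% and 2.24% at 24 h in replicates 1 and 2 and 5.54% to 7.76% in replicates 3 to 5, and at 1 h it was 2.00% and 2.68% against 11.6% to 16%. Each pair lies within 1 of these sets. Values for replicates 1 and 2 alone and for 3 to 5 alone are given for some results only, and others can differ too. The 20 antenna protein genes, which mark green mesophyll, summed to 84453 to 205544 spike-scaled CPM at 24 h and 8008 to 32182 at 1 h, and the 8 root markers, none of which had enough counts to be tested, summed to 0.132 to 1.80 spike-scaled CPM at 24 h and 0.125 to 1.93 at 1 h, with EXPA18 at 0 counts at 24 h and IRT1 at 0 counts at 1 h.

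Promoters of 4 genes are shown because they carry short motifs found in a larger share of some gene groups described below than of all promoters. Each is the 250 bases before the gene start in RefSeq's annotation of TAIR10.1, written 5′ to 3′ on the gene's own strand, with the motif in capitals. BOA (AT5G59570, chr5:24003638-24003887, plus strand) and PRR5 (AT5G24470, chr5:8358547-8358796, minus strand) are evening clock genes and hold the evening element AAAATATCT, which stands here as its other strand AGATATTTT. MCM6 (AT5G44635, chr5:18010668-18010917, minus strand), a subunit of the replicative helicase, holds the E2F site TTTCCCGC as its other strand GCGGGAAA. AT3G03920 (chr3:1010574-1010823, minus strand) encodes the ribosome biogenesis protein GAR1 and holds the site II element TGGGCC as its other strand GGCCCA.
BOA: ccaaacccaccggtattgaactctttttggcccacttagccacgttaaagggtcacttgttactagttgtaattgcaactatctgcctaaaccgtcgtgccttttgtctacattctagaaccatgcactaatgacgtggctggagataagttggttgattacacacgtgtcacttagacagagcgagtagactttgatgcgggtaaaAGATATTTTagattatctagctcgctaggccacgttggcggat
PRR5: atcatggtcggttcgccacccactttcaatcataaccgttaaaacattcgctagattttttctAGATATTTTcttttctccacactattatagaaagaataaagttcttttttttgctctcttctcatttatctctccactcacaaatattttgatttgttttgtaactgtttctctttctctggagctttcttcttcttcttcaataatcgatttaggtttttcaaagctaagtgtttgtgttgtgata
MCM6: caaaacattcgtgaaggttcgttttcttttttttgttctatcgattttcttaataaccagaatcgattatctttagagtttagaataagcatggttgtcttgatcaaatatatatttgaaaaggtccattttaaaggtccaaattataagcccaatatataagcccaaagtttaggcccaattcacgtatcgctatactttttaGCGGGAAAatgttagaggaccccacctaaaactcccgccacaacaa
GAR1: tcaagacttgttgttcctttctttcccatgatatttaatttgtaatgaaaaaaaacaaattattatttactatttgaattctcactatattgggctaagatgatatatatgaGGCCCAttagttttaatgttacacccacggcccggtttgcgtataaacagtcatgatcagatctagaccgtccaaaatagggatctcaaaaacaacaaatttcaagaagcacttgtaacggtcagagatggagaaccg
The motif begins 43 bases before the gene start in BOA, 187 in PRR5, 46 in MCM6 and 138 in GAR1.

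Plant RNA from nuclear genes was more abundant relative to fly RNA after 24 h. Nuclear counts per Drosophila count were 103, 178, 146, 267 and 162 in the 24 h libraries, against 30.9, 95.2, 35.2, 62.9 and 38.7 in the 1 h libraries. Every 24 h library lay above every 1 h library, and the ratio was higher at 24 h in 5 of 5 pairs. The mean was 171 ± 60.4 at 24 h and 52.6 ± 26.9 at 1 h (SD, n = 5 each). On the log2 scale the means differed by 1.77 ± 0.38, a 3.40-fold difference between geometric means. Permuting the time labels over all 10 libraries, without regard to the pairs, gave p = 0.00794 (exact, two-sided), the smallest p this permutation allows. A sign-flip test that keeps the 5 pairs gave the smallest p that 5 pairs allow, which lies above 0.05. Within pairs the ratio was 3.33, 1.87, 4.14, 4.24 and 4.17 times higher at 24 h, so replicate 2 showed the smallest difference. In whole cotyledons a change in the number of cells and a change in RNA per cell cannot be told apart.

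**Figure D1:**
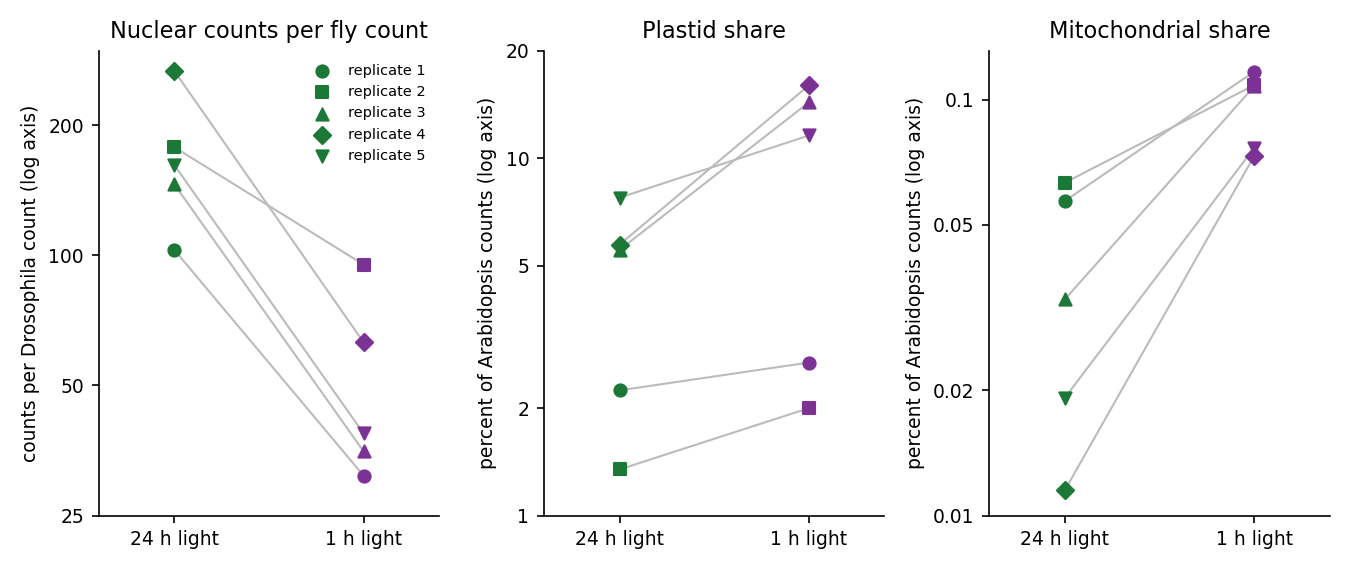
Nuclear counts per Drosophila count, plastid share and mitochondrial share of Arabidopsis counts in each library at 24 h (left, green) and 1 h (right, purple) of light; axes are logarithmic, markers stand for replicates 1 to 5 and grey lines join a pair. The ratio was 103 to 267 at 24 h and 30.9 to 95.2 at 1 h, and both organelle shares were lower at 24 h in 5 of 5 pairs.

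Organelle reads moved the other way as shares of the plant counts. Mitochondrial genes held 0.0571%, 0.0632%, 0.0331%, 0.0115% and 0.0192% of Arabidopsis counts at 24 h, against 0.117%, 0.108%, 0.108%, 0.0731% and 0.0766% at 1 h. The groups did not overlap, and the log2 difference was -1.64 ± 0.49 (exact permutation p = 0.00794, adjusted over both shares 0.0159). Plastid genes held 4.53 ± 2.66% of Arabidopsis counts at 24 h and 9.32 ± 6.57% at 1 h (SD, n = 5 each). The plastid share was lower at 24 h in 5 of 5 pairs, with a log2 difference of -0.85 ± 0.80 between group means (exact permutation p = 0.333) and a paired standard error of 0.24. The permutations for both shares ignored the pairs. For each share a sign-flip test over the 5 pairs gave the smallest p that 5 pairs allow, which lies above 0.05. The log2 difference of the plastid share was -0.41 in replicates 1 and 2 and -1.14 in replicates 3 to 5.

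Genes were tested with edgeR's quasi-likelihood test with the replicate number as a block, and calls were made below an adjusted p of 0.05 (Benjamini-Hochberg over all 19252 genes tested). Under the fly scaling 14135 genes, 73.4%, were higher at 24 h and 824 genes, 4.28%, were lower. The median gene was 2.37-fold higher at 24 h, a log2 fold change of 1.24, with a range of 0.44 to 1.5 over the 5 pairs. When libraries were scaled to one another by TMM, which sets the typical plant gene to no change, the median moved by 1.3 to -0.06, and 4774 genes (24.8%) were higher and 5208 (27.1%) lower. All 4774 were also higher under the fly scaling, 813 genes were lower under both scalings, and 998 genes were higher per fly count but lower relative to the other plant genes. Counts of a gene group are therefore given under both scalings, and a fold change is read against the median of 1.24. The share of a group called is read against the 73.4% higher and 4.28% lower of all genes. With the fly scaling and the block, the fit found no excess spread between genes of like abundance. Such genes therefore share 1 estimate of the spread there, whatever their own spread. Under TMM genes of like abundance did differ in spread (prior degrees of freedom 4.24). An error in a library's fly counts is common to all its genes. The common biological coefficient of variation was 0.35, against 0.259 under TMM and 0.524 under the fly scaling without the block.

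**Figure D2:**
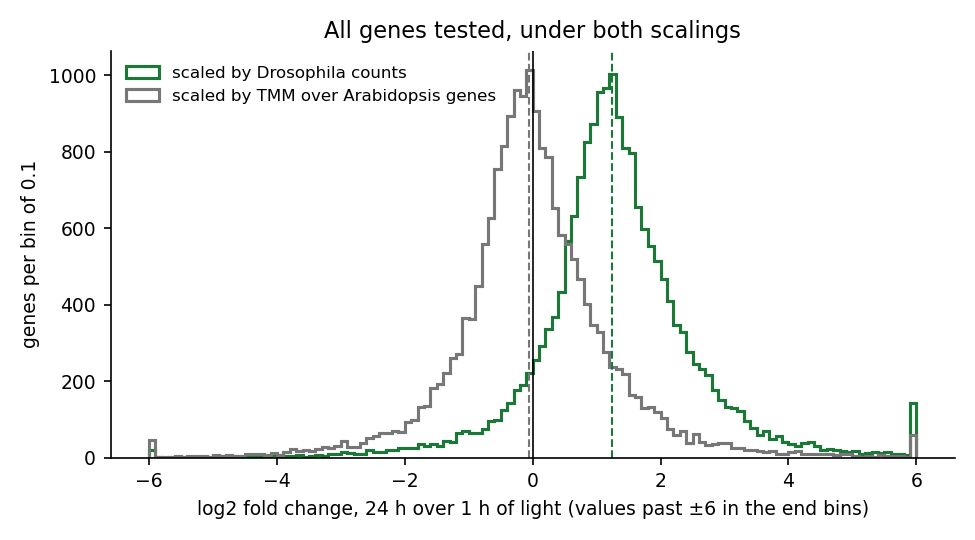
Number of genes by log2 fold change, 24 h over 1 h of light, for all 19252 genes tested, with libraries scaled by Drosophila counts (green) or by TMM over Arabidopsis genes (grey); dashed lines mark the medians. The median lies at 1.24 under the fly scaling and at -0.06 under TMM.

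The 10 genes with the largest increase, among those that reached a mean of 10 spike-scaled CPM in the higher group, were almost silent after 1 h. AT1G29720 (chromosome 1, 10393659 to 10399873 in TAIR10.1), a leucine-rich repeat receptor kinase gene, had 10.9, 23.5, 15.2, 16.7 and 5.55 spike-scaled CPM at 24 h and no count in any 1 h library, which makes it at least 1091-fold higher when the 1 h group is set to 3 counts in all. AT3G10185, of the gibberellin-regulated family, had 9.98 to 17.7 at 24 h and likewise no count at 1 h, at least 945-fold. AT5G44574, a gene of unknown function, was at least 787-fold higher. AT1G65490, also uncharacterised, had 89.3, 154, 98.4, 144 and 105 at 24 h, and all its 10 counts at 1 h came from replicate 2. UGT79B1 and DFR of anthocyanin synthesis belonged to the same 10 genes. So did AT3G28270, AT2G32550 of the Rcd1-like family, the cytochrome P450 gene CYP706A6 and PGL5, a 6-phosphogluconolactonase, with log2 fold changes of 9.48 to 9.96. At 6 h DFR averaged 15.9 ± 9.1 and UGT79B1 9.49 ± 5.06 spike-scaled CPM, whereas AT1G29720 averaged 0.185 ± 0.161 and AT3G28270 0.225 ± 0.163 (SD, n = 5).

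The 10 genes with the largest decrease, chosen the same way, were led by PORA (chromosome 5, 21990864 to 21992814 in TAIR10.1), the protochlorophyllide reductase of etioplasts. PORA had 0.574, 0.953, 0.602, 1.2 and 0.926 spike-scaled CPM at 24 h, against 87.4, 493, 242, 639 and 390.4 at 1 h, a log2 fold change of -8.54 ± 0.47. No library of the 24 h group came near the 1 h group, whose lowest value was that of replicate 1. AT5G44440, of the berberine bridge enzyme family, averaged 2.19 ± 0.597 at 24 h and 218 ± 70.6 at 1 h (SD, n = 5 each; log2 fold change -6.59 ± 0.42). Isocitrate lyase, ICL, the entry enzyme of the glyoxylate cycle, had 1.81, 21.7, 12.8, 10.7 and 10.3 at 24 h, against 252.38, 781, 315, 1133 and 572 at 1 h (-5.86 ± 0.41). The others were AT2G34020, a calcium-binding EF-hand gene, AT1G05575, AT5G02580, AT4G11610, the flowering-promoting factor-like gene FLP1, the cysteine proteinase gene CP1 and the ATPase gene DAA1, with log2 fold changes of -6.78 to -5.81. PORA averaged 1051 ± 775 spike-scaled CPM in D and ICL 936 ± 725. AT1G05575 was low in D, at 0.817 ± 0.733, and had 12.7, 23.2, 16.5, 1.16 and 2.27 at 1 h, with replicates 4 and 5 the lowest.

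Every antenna gene rose. These genes encode the chlorophyll-binding proteins that feed light energy to the photosystems, and 20 of 20 were called higher under either scaling, with a median log2 fold change of 3.24 against 1.24 for all genes. LHCB1.1 had 9657, 15043, 17173, 19425 and 8022 spike-scaled CPM at 24 h, against 74.9, 361, 221, 545 and 126 at 1 h, a log2 fold change of 5.96 ± 0.41. LHCB1.4 was 5.71 ± 0.41 and LHCB4.3, which encodes a minor antenna protein of photosystem II, 4.71 ± 0.39. LHCB1.3 was less changed, with 19769, 29837, 28101, 43030.5 and 17149.6 at 24 h and 3393, 12769, 8286, 3418 and 2465 at 1 h (2.4 ± 0.36). LHCB1.3 averaged 6066 ± 4387 spike-scaled CPM at 1 h and 6722 ± 4186 in D, while LHCB1.1 averaged 266 ± 190.2 at 1 h and 15.3 ± 15.6 in D (SD, n = 5 each). LHCB1.1, LHCB1.2 and LHCB1.3 are neighbouring copies with near-identical coding sequences, so reads could have been split between them, and 1 merged entry of the table joins LHCB1.1 with LHCB1.2.

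The photosystem and electron transport subunits encoded in the nucleus followed, with 34 of 34 called higher under both scalings and a median of 3.15. PSBO2, a subunit of the water-splitting complex, had 1009, 1773, 1941, 3735 and 1734 at 24 h, against 32.4, 214, 76.1, 219.9 and 77.8 at 1 h, a log2 fold change of 4.26 ± 0.38. FNR1, which hands electrons to NADP, changed by 3.93 ± 0.37, PSBTN by 3.89 ± 0.37 and PSAN of photosystem I by 3.67 ± 0.37. The members lay within a narrow band, from 2.08 to 4.26.

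Carbon fixation genes rose by similar amounts. In the Calvin-Benson cycle 20 of 21 genes were higher at 24 h (18 higher and 1 lower under TMM), and the median log2 fold change was 3.33. RBCS1A, a small subunit of Rubisco, had 26381, 48695, 58867, 105390.0 and 63349 spike-scaled CPM at 24 h, against 3091, 12888, 6868, 10627 and 6300.1 at 1 h (2.96 ± 0.36), and the groups did not overlap. Among all genes 27.4% were higher without overlap. RCA, the activase that frees Rubisco's active sites, had 6323, 11530.4, 10283, 23629 and 8912 at 24 h and 265, 1233, 318, 817 and 378 at 1 h (4.46 ± 0.38). RBCS1B changed by 4.45 ± 0.39 and RBCS3B by 4.21 ± 0.38. Some reads of both may sit in merged entries, and their levels are lower bounds. GAPA-2, a subunit of the NADPH-using glyceraldehyde-phosphate dehydrogenase, changed by 4.24 ± 0.38. The exception was CP12-3, a redox regulator of the cycle, with 0.35 ± 0.37 (edgeR adjusted p = 0.378) and a TMM value of -0.96. All 17 photorespiration genes were higher under both scalings, with a median of 2.95, among them the serine hydroxymethyltransferase SHM1, which had 1851, 3129, 3175, 5877 and 2928 at 24 h and 70.6, 322, 96.1, 257 and 141 at 1 h (4.39 ± 0.38).

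Chlorophyll synthesis split at a single step. Of 29 tetrapyrrole genes 27 were higher at 24 h and 2 lower (21 and 2 under TMM), and the lower pair were the protochlorophyllide reductases PORA and PORB. PORB had 51.5, 69.2, 59.7, 89.3 and 90.6 at 24 h, against 240.5, 1060.4, 368, 959 and 518 at 1 h, a log2 fold change of -2.94 ± 0.36. The third reductase, PORC, had 153, 227, 209, 476 and 337 at 24 h and 10.7, 66.9, 15.4, 56.7 and 26.1 at 1 h (3.24 ± 0.36), so the 3 isoforms differed in direction. The groups overlapped in none of them, where 27.4% of all genes were higher and 1.59% lower without overlap. DVR, the divinyl reductase, changed by 3.45 ± 0.36 and CHLI1, a subunit of the magnesium chelatase, by 3.1 ± 0.36. The median of the group was 2.16.

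Photoprotection and carotenoid genes were 18 of 19 higher and none lower, beside 73.4% and 4.28% of all genes, or 13 higher and 2 lower under TMM. LUT5, a carotene hydroxylase of lutein synthesis, had 125, 211, 169, 359.9 and 211 spike-scaled CPM at 24 h, against 4.83, 28.4, 5.27, 24 and 11.1 at 1 h (4.16 ± 0.37). ABA1, the zeaxanthin epoxidase, changed by 2.83 ± 0.35, PDS3, a phytoene desaturase, by 2.76 ± 0.35 and the antenna-like gene SEP1 by 2.72 ± 0.35. The early light-induced genes stood lower in this order. ELIP1 had 587, 1197, 1245, 2545 and 2973 at 24 h and 186, 865, 454, 1362 and 384 at 1 h (1.47 ± 0.35), close to the median gene, and was not called under TMM (0.17). ELIP2 was higher per fly count (0.82 ± 0.34) and lower under TMM (-0.49), and it was not called without replicate 1, 3 or 5 (0.65 to 0.80). Both had higher means at 6 h, 3619 ± 1567 for ELIP1 and 2262 ± 1100.0 for ELIP2 (SD, n = 5), than at 24 h or 1 h.

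The genes that build a chloroplast were higher at 24 h in nearly every case, beside 73.4% of all genes. All 17 plastid division and thylakoid genes were called (15 under TMM), led by FTSZ1 of the division ring (3.93 ± 0.37) and by CURT1B (3.41 ± 0.36), which bends thylakoid membranes. Plastid lipid and fatty acid genes were higher in 17 of 17 (11 under TMM), with SQD2 of sulfolipid synthesis at 3.73 ± 0.36 and the acyl carrier protein gene ACP4 at 3.44 ± 0.36. In the plastid ribosome and import group 15 of 17 were higher (13 higher and 2 lower under TMM), with PRPS1 at 2.84 ± 0.36. The plastid transcription machinery was the least moved of these, with 19 of 21 higher, 8 higher and 2 lower under TMM and a median of 1.64. FLN1, a kinase-like component of the plastid RNA polymerase complex, had 41.9, 66.1, 41.2, 114 and 107 at 24 h and 3.75, 19.1, 3.88, 17 and 7.68 at 1 h (3.05 ± 0.35), and SIG2, a sigma factor, changed by 2.37 ± 0.34.

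Genes encoded in the plastid itself stayed near the median gene. Of 103 tested among 140 in the table, 78 were higher and 3 lower per fly count, close to the 73.4% and 4.28% of all genes, and the median of 1.04 lay below that of all genes. Under TMM 8 were higher and 26 lower. ATCG00020 had 579.6, 795, 281, 94.2 and 91.7 at 24 h, against 52.7, 105, 26.4, 31.2 and 21 at 1 h (2.71 ± 0.35), and ATCG00940 changed by 2.52 ± 0.35. ATCG00600 (-1.55 ± 0.39), ATCG00900 (-1.44 ± 0.37) and ATCG01160 (-1.48 ± 0.39) were lower. ATCG00600 was lower in 4 of 5 pairs, had no count at 24 h in replicates 3 and 5, and was not called under TMM. ATCG00900 was not called without replicate 5 (-0.91), nor ATCG01160 without replicate 2 (-0.76). The mitochondrial genome gave 19 higher and 0 lower of 47 tested among 126, and 0 higher and 10 lower under TMM. The share of mitochondrial genes higher per fly count, 40.4%, was below the 73.4% of all genes. The median change of the plastid-encoded genes was 0.83 in replicates 1 and 2 and 1.12 in replicates 3 to 5.

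**Figure D3:**
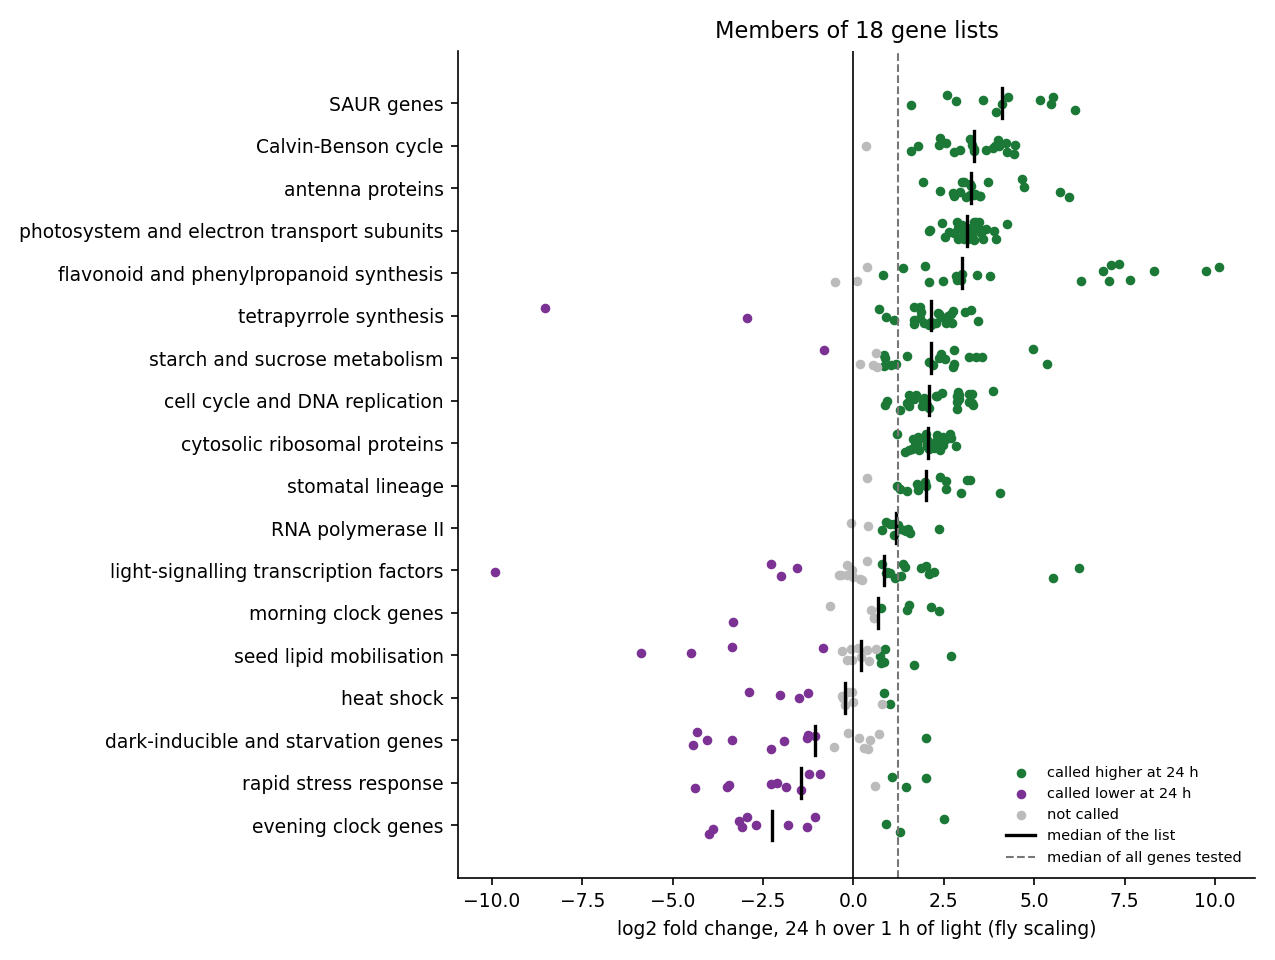
Log2 fold change, 24 h over 1 h of light under the fly scaling, for each tested member of 18 gene lists; green points were called higher, purple points called lower and grey points not called, black bars are list medians and the dashed line is the median of all genes tested at 1.24. Photosynthesis genes lie mostly to the right of the dashed line, and evening clock, rapid stress and dark-inducible genes lie mostly to its left.

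The late genes of anthocyanin synthesis were near 0 at 1 h and clearly detected at 24 h. Of 23 flavonoid and phenylpropanoid genes tested, out of 24, 20 were higher and none lower (15 and 2 under TMM), with log2 fold changes of -0.50 to 10.1. Per fly count 73.4% of all genes were higher and 4.28% lower. DFR, dihydroflavonol reductase, had 6.49, 44.4, 40.3, 46.6 and 188 spike-scaled CPM at 24 h, against 0, 0, 0.0938, 0.233 and 0 at 1 h, where 12 counts were seen in all (9.74 ± 0.53). LDOX, the next enzyme, had 4.37, 28.3, 26.8, 28.9 and 97 at 24 h and 0.050, 0, 0.0751, 0.20 and 0.0997 at 1 h (8.31 ± 0.48). In both genes replicate 5 was the highest and replicate 1 the lowest at 24 h. UGT79B1, which adds xylose to anthocyanins, had 1 count at 1 h and a ratio of counts of 2267 (95% interval 406 to 89655). 5MAT, an anthocyanin acyltransferase, changed by 7.64 ± 0.53. TT4, chalcone synthase and the first committed step, was already present in the 1 h group. TT4 had 125, 326, 379, 886 and 1024 at 24 h and 7.72, 88, 30.5, 308 and 68.1 at 1 h (3.01 ± 0.37), and the groups overlapped because replicate 4 at 1 h lay above replicate 1 at 24 h. PAP2, a MYB activator of the late genes, changed by 7.07 ± 0.69, whereas PAP1 was 0.38 ± 0.35 (edgeR adjusted p = 0.312). The G-box CACGTG, on either strand, lay in 7 of the 24 promoters of this group, 29.17%, against 6.486% of all 27443 protein-coding promoters of the same length and 7.638% of the 17726 of genes tested.

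Evening clock genes were mostly lower. Among them 9 of 12 were lower at 24 h and 3 higher, against a background of 4.28% lower and 73.4% higher, and the median log2 fold change was -2.26. Under TMM 10 were lower and 1 higher. BOA, a MYB-like factor of the evening complex family, had 0.53, 1.23, 1.2, 1.44 and 0.694 spike-scaled CPM at 24 h, against 10.7, 28.9, 11.2, 20.2 and 11.3 at 1 h (-3.98 ± 0.38). ELF4, an evening complex subunit, had 1.5, 5.18, 1.74, 3.95 and 2.31 at 24 h and 30.8, 85.4, 29.9, 49.7 and 22.1 at 1 h (-3.88 ± 0.36). Neither gene's groups came near each other. PRR5, a pseudo-response regulator, had 1.15, 1.77, 1.54, 2.88 and 0.848 at 24 h and 16, 33, 11.7, 3.56 and 11.9 at 1 h (-3.09 ± 0.38), with the lowest 1 h value in replicate 4. PRR3 changed by -3.15 ± 0.38, and GI, a large clock protein of the afternoon, had 3.66, 5.04, 8.09, 15 and 5.78 at 24 h and 30.042, 82.2, 22.3, 63.5 and 43.1 at 1 h (-2.69 ± 0.35). TOC1, the repressor of CCA1 and LHY, had 9.32, 17.8, 12.4, 18.5 and 16.4 at 24 h and 53.8, 114, 34, 44.8 and 36.8 at 1 h (-1.82 ± 0.34), and its change was -2.61 in replicates 1 and 2 and -1.3 in replicates 3 to 5. The higher members of this list were CHE (2.51 ± 0.34), LKP2 (1.29 ± 0.33) and ZTL (0.91 ± 0.32). Of these ZTL was lower under TMM (-0.40) and not called without replicate 3 (0.71). The list was written from general knowledge, and the daily phase of its members was not tested. The evening element shown in BOA and PRR5 lay in 5 of the 12 evening promoters, 41.67%, against 2.361% of all protein-coding promoters and 2.494% of those of the genes tested.

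Morning clock genes were mixed. Of 10 genes 5 were higher and 1 lower, with a median of 0.67 that lay below that of all genes, and 2 were higher and 6 lower under TMM. LHY had 251.98, 619, 382, 677 and 528 at 24 h, against 31.7, 153, 26.4, 274 and 161 at 1 h (2.36 ± 0.35), although replicate 4 at 1 h lay above replicate 1 at 24 h. LNK2, a coactivator of morning factors, had 301, 647, 364, 705 and 322 at 24 h and 92.4, 196, 32, 138 and 112 at 1 h (2.14 ± 0.35). Both were also higher under TMM. CCA1 had 178, 335, 257, 348 and 189.9 at 24 h and 56.7, 190.0, 29.9, 148 and 114 at 1 h (1.48 ± 0.34, edgeR adjusted p = 3.68e-05), higher in 5 of 5 pairs as were 67.7% of all genes, and was not called under TMM (0.20). RVE8, an activator related to CCA1, changed by 1.53 ± 0.34 and was likewise not called under TMM. PRR9, the first pseudo-response regulator of the day, went the other way, with 7.24, 10.1, 18.3, 10.4 and 1.54 at 24 h and 78.1, 186, 45.9, 54.3 and 71.8 at 1 h (-3.33 ± 0.38). PRR9 averaged 0.75 ± 0.354 in D, so its 1 h level stood above darkness as well (SD, n = 5), and CCA1 and LHY averaged 9.66 ± 6.91 and 10.8 ± 7.58 at 6 h. The G-box lay in 5 of the 10 morning promoters, 50%.

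**Figure D4:**
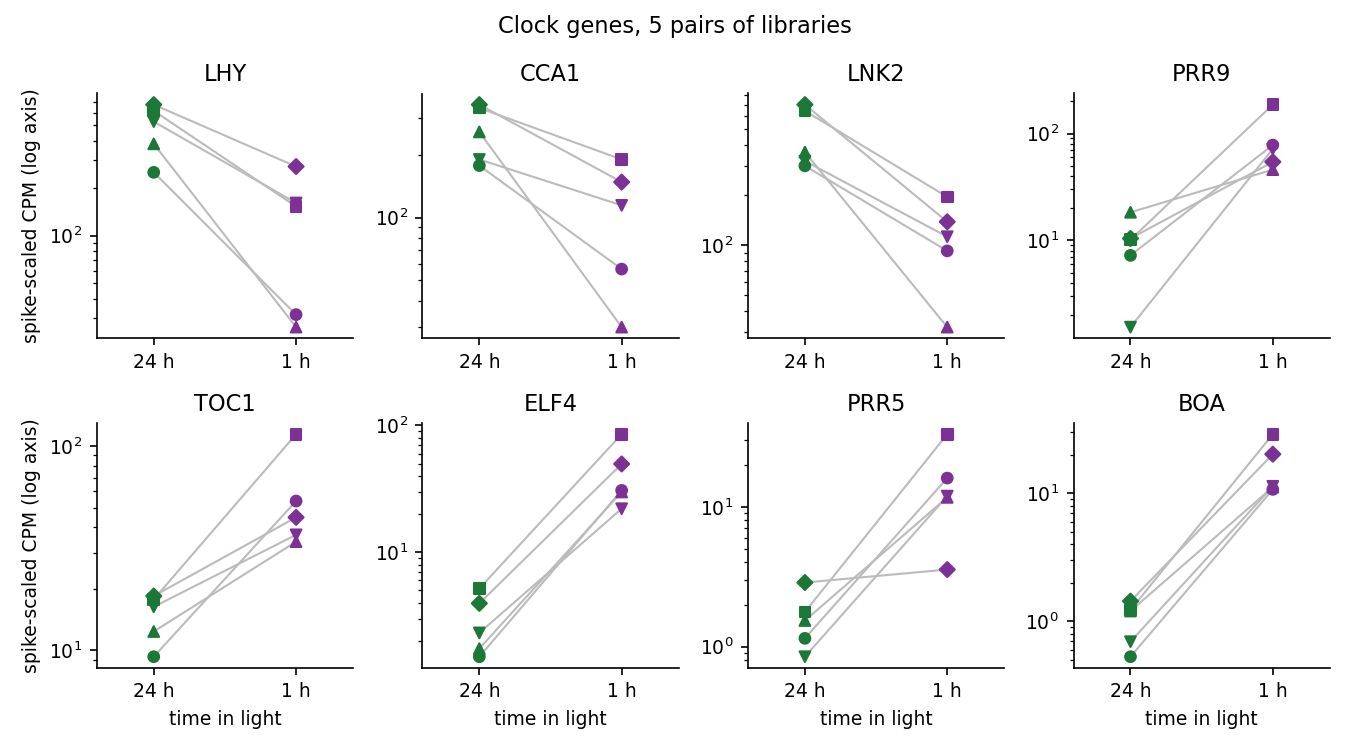
Spike-scaled CPM of 8 clock genes in each library at 24 h (left, green) and 1 h (right, purple) of light, on logarithmic axes; markers stand for replicates (circle 1, square 2, triangle 3, diamond 4, inverted triangle 5) and grey lines join a pair. LHY, CCA1 and LNK2 were higher at 24 h in 5 of 5 pairs, as were 67.7% of all genes. PRR9, TOC1, ELF4, PRR5 and BOA were lower in 5 of 5 pairs, as were 3.12% of all genes.

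Light-signalling transcription factors of the same family moved in different directions. Of 28 tested, out of 29, 15 were higher and 4 lower, and under TMM 5 were higher and 14 lower. Per fly count these shares were 53.6% and 14.3%, beside 73.4% and 4.28% of all genes. HY5, the leucine-zipper activator of greening, had 33.6, 67.1, 35.2, 49 and 28.9 at 24 h, against 163, 399, 122, 137 and 104 at 1 h (-1.99 ± 0.34). HFR1, which sequesters phytochrome-interacting factors, had 3.75, 11.2, 11.7, 12 and 5.71 at 24 h and 24, 78.7, 32.1, 38.8 and 38.4 at 1 h (-2.28 ± 0.34). BBX32, a B-box protein without a DNA-binding domain of its own, had 17.3962, 32.2, 38.5, 48.2 and 40.031 at 24 h and 48.9, 155, 99.2, 123 and 97.1 at 1 h (-1.55 ± 0.33). All 3 were lower in 5 of 5 pairs with no overlap between groups. Among all genes 3.12% were lower in 5 of 5 pairs and 1.59% lower without overlap. The groups of BBX32 nearly met, at 48.2 in 24 h replicate 4 and 48.9 in 1 h replicate 1. BBX23 had no count at 24 h and 3.35, 5.39, 3.45, 2.96 and 4.61 at 1 h, which makes it at least 92.5-fold lower when the 24 h group is set to 3 counts in all. BBX23 averaged 93.3 ± 49.9 in D (SD, n = 5). Among phytochrome-interacting factors, PIF7 and UNE10, also called PIF8, had the largest increase. PIF7 had 32.8, 43, 40.4, 61.7 and 36.1 at 24 h and 0.563, 1.73, 0.507, 1.6 and 0.738 at 1 h (5.53 ± 0.39). UNE10 had 63.8, 131, 128, 243 and 179.6 at 24 h and 0.651, 3.06, 1.61, 4.39 and 1.26 at 1 h (6.25 ± 0.41). PIF1, PIF3, PIF4 and PIF5 were higher too, by 1.37 to 2.24, of which PIF3 was not called under TMM. HYH, the close relative of HY5, was higher per fly count (1.15 ± 0.33) and not called under TMM (-0.16).

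Photoreceptors and the COP1-SPA group had a median of 1.13, just under that of all genes. Of 23 genes 15 were higher, a smaller share than the 73.4% of all genes, and 4 lower, with 2 higher and 10 lower under TMM. PHYA, the phytochrome that accumulates in darkness, had 17.8, 44.8, 27.6, 43.6 and 25.5 at 24 h, against 76.8, 192, 95, 111 and 81.4 at 1 h (-1.8 ± 0.33), and FHY1 and FHL, which carry it into the nucleus, had log2 fold changes of -0.71 ± 0.33 and -1.46 ± 0.42. FHY1 was lower in 4 of 5 pairs, its groups overlapped, and it was not called without replicate 1, 2, 3 or 5 (-0.82 to -0.47). It averaged 146 ± 64.1 in D. PHYB, the main phytochrome of green plants, had 27.8, 52.3, 44.9, 70.6 and 53.5 at 24 h and 7.66, 24.5, 5.86, 29.4 and 14.2 at 1 h (1.81 ± 0.34), and PHYE changed by 1.96 ± 0.33. Both were higher under TMM as well.

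The SAUR genes, small auxin-inducible genes tied to cell expansion, had the highest median of all lists. All 11 tested, out of 13, were higher (9 under TMM), with a median log2 fold change of 4.1. SAUR16 had 64, 89.3, 62.6, 112 and 72.4 spike-scaled CPM at 24 h, against 0.225, 2.52, 1.56, 2.26 and 0.638 at 1 h (6.13 ± 0.41), and SAUR14 had 222, 366, 217, 316 and 322 at 24 h and 16.6, 106, 37.1, 106 and 31.6 at 1 h (2.6 ± 0.35). SAUR14 averaged 303 ± 119 at 6 h, near its 24 h level (SD, n = 5). SAUR63 changed by 5.53 ± 0.39 and SAUR20 by 5.47 ± 0.40. Of 18 expansin and xyloglucan genes tested, out of 19, 15 were higher and 1 lower (9 and 3 under TMM). Per fly count these shares were 83.3% and 5.56%, near the 73.4% and 4.28% of all genes. EXPA1, an expansin that loosens walls, had 322, 548, 328, 425 and 279 at 24 h and 4.58, 27, 7.73, 47.7 and 7.44 at 1 h (4.87 ± 0.39), EXPA5 changed by 5.5 ± 0.41 and EXPA8 by 5.36 ± 0.40. XTH15, a xyloglucan endotransglucosylase gene, was the lower member, with 16.5, 45.2, 19.996, 62.3 and 5.78 at 24 h and 186, 379.8, 217, 53.7 and 139 at 1 h (-3.01 ± 0.39), and in replicate 4 it was higher at 24 h.

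The count of auxin and shade genes called was near the 73.4% higher and 4.28% lower of all genes, and their median was 2.11. They were higher in 12 of 15 tested, out of 17, and lower in 1 (6 and 1 under TMM). IAA17, an Aux/IAA repressor, had 20.6, 36.2, 31, 68.1 and 38.6 at 24 h and 0.175, 4.0, 0.169, 2.16 and 0.199 at 1 h (5.91 ± 0.41), with replicates 2 and 4 the highest at 1 h. YUC2, an enzyme of auxin synthesis, changed by 4.07 ± 0.45, while its relative YUC8 was lower (-1.1 ± 0.38). All 8 primary-wall cellulose genes were higher, of which 3 were so under TMM. ARR16, a type-A cytokinin response regulator, had 24.9, 43.1, 24.4, 28 and 32.9 at 24 h and 0.851, 1.98, 1.63, 2.96 and 1.02 at 1 h (4.29 ± 0.36), the largest change among 8 such genes tested, out of 10. Of these 5 were higher and none lower per fly count, and 3 higher and 3 lower under TMM. The share higher per fly count, 62.5%, was below the 73.4% of all genes.

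All 35 cytosolic ribosomal protein genes were higher, 23 of them under TMM, within 1.2 to 2.83 on the log2 scale and with a median of 2.06. RPS6A, a small-subunit protein, changed by 2.7 ± 0.36. All 22 ribosome biogenesis genes tested, out of 23, were higher (11 under TMM, median 2.05), with NOP56 at 2.78 ± 0.35. AT3G03920, whose promoter is shown above, had 57.8, 87.8, 49.8, 78.8 and 82.8 at 24 h and 7.43, 29.952, 9.42, 25.6 and 12.7 at 1 h (2.25 ± 0.34). Its site II element, searched on both strands, lay in 13 of 23 ribosome biogenesis promoters, 56.52%, and in 17 of 35 ribosomal protein promoters, 48.57%. The share was 13.65% of all protein-coding promoters and 17.73% of those of the genes tested. It was also 42.86% in the RNA polymerase II and in the heat shock group, 6 of 14 promoters each, whose medians did not exceed that of all genes. The ribosomal protein genes had nearly equal medians in the replicate sets, 2.1 in replicates 1 and 2 and 2.04 in replicates 3 to 5. So did the ribosome biogenesis genes, with 1.95 and 2.0. The median of all genes was 0.87 in replicates 1 and 2 and 1.5 in replicates 3 to 5.

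All 33 cell cycle and DNA replication genes were higher at 24 h (19 under TMM), with a median of 2.09. AUR1, a mitotic Aurora kinase, had 8.21, 15.5, 8.23, 22.8 and 17.3 at 24 h, against 0.526, 2.62, 0.995, 2.4 and 1.4 at 1 h (3.29 ± 0.35), and CYCB1;1, a mitotic cyclin, had 2.34, 3.0, 2.88, 6.47 and 4.24 at 24 h and 0.163, 0.84, 0.206, 0.699 and 0.299 at 1 h (3.29 ± 0.45). CYCB2;1 changed by 3.87 ± 0.56 and the kinesin gene HIK by 3.32 ± 0.41. MCM6 had 2.83, 3.81, 3.48, 6.35 and 6.4 at 24 h and 0.313, 1.98, 0.507, 3.16 and 1.54 at 1 h (1.97 ± 0.39) and was not called under TMM (0.66). Its mean at 6 h was 6.03 ± 3.46 (SD, n = 5). The E2F site shown in its promoter lay in 3 of 33 promoters of this group, 9.091%, against 0.6195% of all and 0.6488% of those tested. The share was also 9.091% in the reference genes and in the vascular markers, 1 of 11 promoters each. RNA polymerase II subunits stayed at the level of the median gene, with a median of 1.19. Of 14 subunits 12 were higher, beside 73.4% of all genes, and 1 was higher and 3 lower under TMM. NRPB1, the largest subunit, had 8.83, 20.4, 26.8, 41 and 34.2 at 24 h and 6.18, 21.8, 6.46, 20.6 and 16.9 at 1 h (0.89 ± 0.32), higher in 4 of 5 pairs, and its value under TMM was -0.41, not called. Without replicate 3 or 5 its change was 0.61 or 0.86, not called. NRPB1 changed by 0.21 in replicates 1 and 2 and by 1.35 in replicates 3 to 5.

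Stomatal lineage genes were higher in 15 of 16 cases, beside 73.4% of all genes. Under TMM 12 were higher and 1 lower, beside 24.8% and 27.1% of all genes. MUTE, which commits cells to guard mother cell fate, had 6.71, 12.5, 10.4, 20.5 and 11 at 24 h and 0.563, 2.27, 0.976, 2.06 and 1.36 at 1 h (3.15 ± 0.35). EPF1, a peptide that spaces stomata, had 19.3, 30.4, 17.9, 42.1 and 33.8 at 24 h and 1.93, 6.62, 2.2, 4.76 and 1.56 at 1 h (3.22 ± 0.34), and SDD1, a protease of the same pathway, changed by 4.05 ± 0.38. Markers of the other cell types of a cotyledon had medians of 1.65 for the vasculature and 1.35 for the epidermis. All 10 vascular markers tested, out of 11, were higher (3 under TMM), with SEOR1 of the sieve elements at 2.85 ± 0.34. Epidermal markers were higher in 5 of 6, beside 73.4% of all genes (2 higher and 1 lower under TMM). They were led by the lipid transfer protein gene LTP1 (4.04 ± 0.38). The epidermal fate regulator PDF2 changed by 1.18 ± 0.33 and had a TMM value of -0.13, not called. Summed over the list, vascular markers held 72.4 to 188 spike-scaled CPM at 24 h and 20.9 to 91.5 at 1 h, epidermal markers 1031 to 4279 at 24 h and 144 to 788 at 1 h, and stomatal genes 327 to 662 at 24 h and 108 to 390 at 1 h. The part of the cell type makeup in the gene groups above was not tested.

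Genes of the shoot apex stayed low. The 8 meristem markers summed to 2.38 to 8.27 spike-scaled CPM at 24 h and 2.82 to 10.8 at 1 h, and of 5 tested only STM was called, with 0.574, 0.749, 1.2, 1.08 and 1.0 at 24 h and 1.4, 3.51, 2.57, 2.93 and 3.27 at 1 h (-1.54 ± 0.43). Under TMM all 5 were lower. The sums of both groups overlapped, and WUS, a gene of the stem cell organiser, had no count in any 24 h library. Leaf growth regulators of the GRF and TCP families were 8 higher and 3 lower of 18 (2 and 11 under TMM). These shares were 44.4% and 16.7%, beside 73.4% and 4.28% of all genes. GRF7 had 0.0883, 0.204, 0, 0.359 and 0.309 at 24 h and 4.38, 7.76, 2.1, 3.33 and 3.81 at 1 h (-4.63 ± 0.53) and averaged 124 ± 49.4 in D (SD, n = 5). GRF8 changed by -2.59 ± 0.46 and TCP10, a leaf differentiation factor, by 2.68 ± 0.35.

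Stored oil is turned into sugar by beta-oxidation, the glyoxylate cycle and gluconeogenesis, and the 4 genes of this group that fell were ICL, MLS, PCK1 and the peroxisomal citrate synthase gene CSY3 (-0.85 ± 0.33), which was not called without replicate 2 (-0.64) or 5 (-0.69). Beside ICL, the malate synthase gene MLS had 0.795, 5.79, 1.74, 2.76 and 1.7 spike-scaled CPM at 24 h, against 5.62, 64, 8.05, 59.954 and 22.7 at 1 h (-3.34 ± 0.36), lower in 5 of 5 pairs although replicate 2 at 24 h lay above replicate 1 at 1 h. PCK1, the phosphoenolpyruvate carboxykinase of gluconeogenesis, had 4.81, 18.7, 8.09, 32.8 and 20.7 at 24 h and 251.91, 564, 195, 393 and 266 at 1 h (-4.49 ± 0.38). Of 19 genes 6 rose and 4 fell, beside 73.4% and 4.28% of all genes, and 1 was higher and 16 lower under TMM. The group median was -0.36 in replicates 1 and 2 and 0.62 in replicates 3 to 5, where all genes had 0.87 and 1.5. The acyl-CoA oxidases ACX1, ACX2 and ACX4 of beta-oxidation lay between -0.32 and 0.22 and were not called, and all 3 were lower under TMM. PMDH2, a peroxisomal malate dehydrogenase that photorespiration also uses, was higher under both scalings (2.7 ± 0.36). None of the 11 seed storage and late embryogenesis genes had enough counts to be tested.

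Genes known from darkness and sugar starvation were mostly lower or not called. Of 17 tested, out of 18, 9 were lower and 1 higher (12 and 0 under TMM). Per fly count 4.28% of all genes were lower and 73.4% higher. DYL1, a dormancy-associated gene, had 6.31, 16.5, 15, 31.2 and 9.8 at 24 h, against 334, 494, 577, 71.6 and 205 at 1 h (-4.45 ± 0.41). DRM2, its relative, had 3.58, 9.53, 19.7, 35.6 and 1.23 at 24 h and 126, 215, 457, 40.6 and 97.3 at 1 h (-4.33 ± 0.42). BCAT2, which starts the breakdown of branched-chain amino acids, had 2.3, 10.6, 9.9, 7.79 and 2.39 at 24 h and 146, 299.7, 108, 17.8 and 51.7 at 1 h (-4.05 ± 0.40). The groups of these 3 genes did not overlap, where 1.59% of all genes were lower without overlap. Those of SEN1, a senescence-associated gene, overlapped, at 6.49, 64.6, 52.4, 129 and 3.86 at 24 h and 299, 673, 325, 92.5 and 121 at 1 h (-3.35 ± 0.41). SEN1 was higher at 24 h in replicate 4. The decrease was larger in replicates 1 and 2, with a group median of -2.23, than in replicates 3 to 5, with -0.22, although the median of all genes also differed, 0.87 against 1.5. DIN10, a raffinose synthase-like gene, was the higher member (2.0 ± 0.36) and was not called under TMM (0.71).

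Starch and sucrose genes were called about as often as all genes, with 19 of 24 higher and 1 lower beside 73.4% and 4.28% of all genes, and their median was 2.14 (13 and 5 under TMM). GBSS1, the granule-bound starch synthase, had 58, 84.4, 80.1, 146 and 83.8 at 24 h, against 0.976, 7.41, 1.52, 6.62 and 2.31 at 1 h (4.95 ± 0.39), and averaged 4.26 ± 2.62 at 6 h (SD, n = 5). BAM3, a plastid beta-amylase of starch breakdown, had 83.8, 122, 135, 283 and 141 at 24 h and 2.16, 5.83, 2.85, 6.42 and 2.13 at 1 h (5.35 ± 0.39), but averaged 46.2 ± 19.8 already at 6 h. ADG1, the small subunit of ADP-glucose pyrophosphorylase, changed by 3.56 ± 0.37 and SPS4F, a sucrose-phosphate synthase, by 3.39 ± 0.36. The lower member was DPE1, a disproportionating enzyme, with -0.82 ± 0.33, which was not called without replicate 1 (-0.74) or 2 (-0.46). Nitrogen assimilation genes were higher in 8 of 9 tested, out of 10, beside 73.4% of all genes (4 higher and 1 lower under TMM). Among them the plastid glutamine synthetase GLN2 changed by 3.12 ± 0.36.

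**Figure D5:**
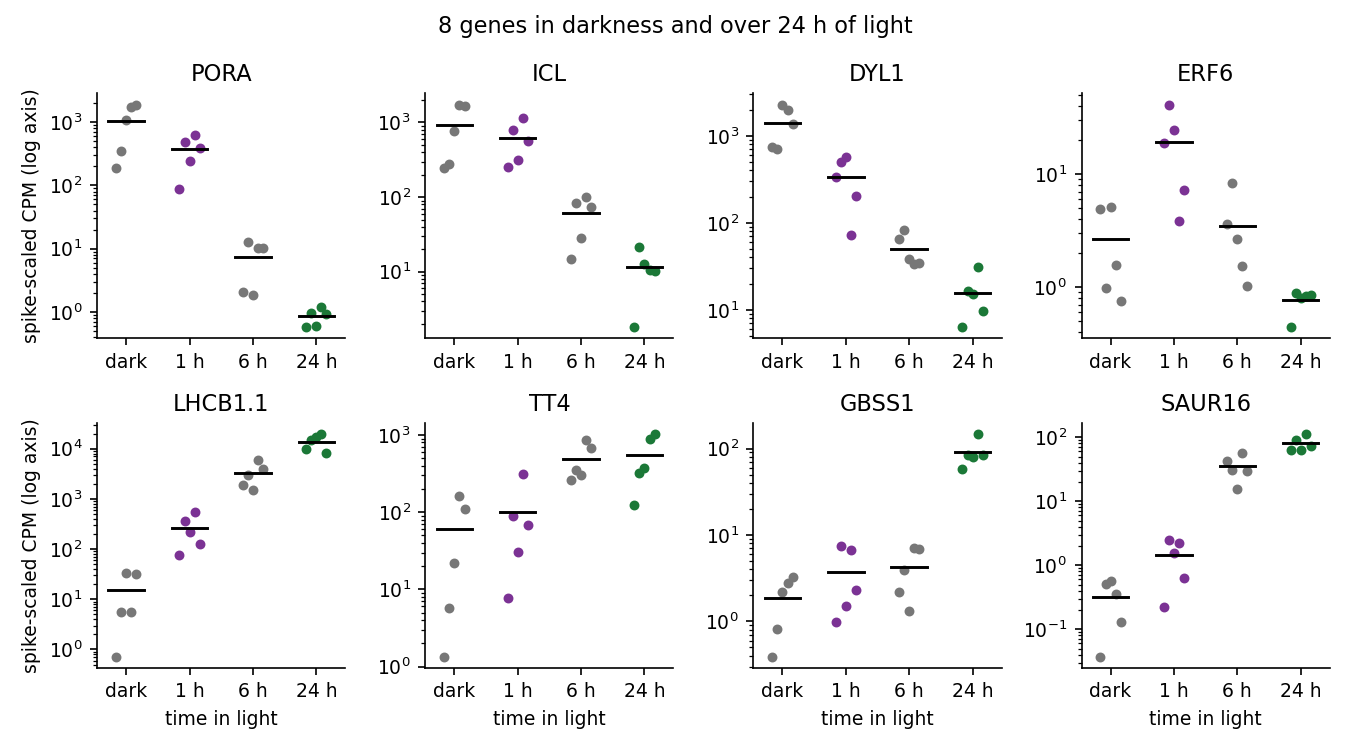
Spike-scaled CPM, on logarithmic axes, of 8 genes in each of 5 libraries in darkness (D) and after 1 h, 6 h and 24 h of light; points are libraries and black bars are means. PORA, ICL and DYL1 were lower at 24 h than at 1 h in every pair, ERF6 was highest at 1 h, and GBSS1 averaged 90.5 at 24 h, 3.77 at 1 h and 4.26 at 6 h.

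Rapid stress genes were mostly lower at 24 h. Of 13 tested, out of 16, 9 were lower and 3 higher, and under TMM 9 were lower and 1 higher. Among all genes 4.28% were lower and 73.4% higher, and under TMM 27.1% were lower and 24.8% higher. ERF6, an ethylene response factor, had 0.442, 0.885, 0.803, 0.839 and 0.848 spike-scaled CPM at 24 h, against 18.9, 41.2, 24.8, 3.83 and 7.18 at 1 h (-4.39 ± 0.41), while D averaged 2.65 ± 2.15 (SD, n = 5). WRKY33, a regulator of defence genes, had 1.85, 3.75, 3.08, 3.24 and 3.55 at 24 h and 45.5, 107, 31, 11.1 and 20.3 at 1 h (-3.45 ± 0.37). CBF2, of cold signalling, changed by -3.5 ± 0.47. In ERF6 and WRKY33 replicates 4 and 5 were the lowest of the 1 h group, and the change was -5.47 in replicates 1 and 2 against -3.54 in replicates 3 to 5 for ERF6. The 3 higher genes were TCH2 (1.44 ± 0.33) and the jasmonate repressors JAZ1 (1.08 ± 0.32) and JAZ10 (2.0 ± 0.34), of which JAZ10 was also higher under TMM.

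Heat shock genes lay below the median gene. Their median was -0.87 in replicates 1 and 2 and 0.47 in replicates 3 to 5, where all genes had 0.87 and 1.5. Of 13 tested, out of 14, 2 were higher and 4 lower (0 and 10 under TMM), beside 73.4% and 4.28% of all genes. HSP22, a small heat shock protein of the endomembrane system, had 0.353, 3.47, 0.803, 0.599 and 0.463 at 24 h and 4.28, 12.9, 4.15, 6.75 and 5.78 at 1 h (-2.89 ± 0.40). Antioxidant enzyme genes were higher in 11 of 12 tested, out of 13, beside 73.4% of all genes (8 higher and 2 lower under TMM). CSD2, the plastid copper/zinc superoxide dismutase, had 960.1, 667, 708, 2285 and 1165 at 24 h and 66.7, 122, 68.8, 259.5 and 166 at 1 h (3.12 ± 0.36), and the plastid peroxiredoxin gene PRXQ changed by 3.92 ± 0.38. The lower member was the catalase gene CAT3 (-1.35 ± 0.34). Wax and cuticle genes were higher in 7 of 8 tested, out of 12, and lower in 1 (4 and 1 under TMM). Among all genes 73.4% were higher and 4.28% lower. CER6, a fatty acid elongase of wax synthesis, changed by 2.95 ± 0.35 and CER3 by 2.38 ± 0.35, and the lower gene was CER1 (-1.42 ± 0.41). CER1 was not called without replicate 2, 4 or 5 (-1.26 to -0.58).

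Genes commonly used as references in expression studies were not level on both scales. Of 11 such genes 8 were higher per fly count, near the share of all genes, and under TMM 2 were higher and 3 lower. ACT2, an actin, had 343, 753, 777, 1517 and 640.4 at 24 h and 148, 507, 208, 336 and 208 at 1 h (1.5 ± 0.34) and was not called under TMM (0.19). UBQ10, a polyubiquitin, had 709, 1181, 954, 1859 and 888 at 24 h and 697, 1396, 733, 795 and 531 at 1 h (0.42 ± 0.33, edgeR adjusted p = 0.231), and was lower under TMM (-0.88). GAPC2, the cytosolic glyceraldehyde-phosphate dehydrogenase, was higher under both (2.51 ± 0.35 and 1.19).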

How the data were processed

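The values are counts per gene as deposited in the wild-type table, which lists Arabidopsis and Drosophila genes together. Per the submitters' processing notes, Salmon 1.9.0, HTSeq, R 4.3.2 and the TAIR10 build were used. What each was used for, and whether strand was used, is not given in the sources at hand. The table has 53986 entries, of which 1539 name no gene identifier and were left out of library sizes and tests, and 1128 nuclear entries join several genes and were tested as they stand. Genes that also occur in such merged entries, 38 of the 697 listed, have counts that are lower bounds.

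Library sizes were set by the summed Drosophila counts and rescaled to the mean size of the Arabidopsis libraries, which gives spike-scaled CPM. A fly total of 74941 counts or more leaves little counting error, but errors in adding cells enter every gene of a library. Genes were kept by edgeR's filterByExpr (at least 10 counts in enough libraries and 15 in all), and tested in edgeR 4.0.16 (R 4.3.3) with glmQLFit and glmQLFTest on time plus replicate number. The script was tested on simulated counts. P-values were adjusted by Benjamini-Hochberg over all genes tested and called under 0.05, and a value after ± is the standard error of a log2 fold change or, where written, an SD. The ratio and the shares were compared by two-sided exact permutation tests over libraries, which ignore the pairs, and by sign-flip tests over the 5 pairs. Intervals of count ratios cover counting error only, and the floor for a group without counts was 3 counts over the group.

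The replicate number was used as a block because the comparison pairs libraries by it. Replicates 1 and 2 were also known to differ from 3 to 5. Deviations of libraries with the same number from their group means were correlated over genes, at 0.374, 0.443, 0.211, 0.148 and 0.305 for replicates 1 to 5. In 24 h replicates 1, 4 and 5 the correlation was higher with 1 h replicates 2, 5 and 4, at 0.378, 0.199 and 0.349. In replicates 2 and 3 the same number gave the highest value. These values therefore do not separate a link within pairs from one within the 2 sets. Gene lists and the comparison were chosen with earlier results of these data known. Genes were named by rule: the 10 largest called increases and decreases among genes with 1 identifier, a mean of at least 10 spike-scaled CPM in the higher group and 1 direction in 5 of 5 pairs; up to 4 called members of each list with the largest change; and 16 genes named whatever their values. ACX1, ACX2, ACX4, CAT3, CER1, CHE, CP12-3, CSY3, DIN10, DPE1, ELIP2, FHL, FHY1, GAR1, GI, HYH, JAZ1, JAZ10, LKP2, MCM6, PAP1, PAP2, PIF1, PIF3, PIF4, PIF5, PORB, TCH2, XTH15, YUC8, ZTL and the organelle genes were chosen after their values were seen. Gene names and coordinates come from RefSeq's annotation of TAIR10.1, which matched 37282 of 37528 single-identifier entries. It pairs no names with the plastid and mitochondrial identifiers, which are given as they stand. Promoters were read from the same assembly, and motifs were searched on both strands.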

Additional observations from a re-analysis of the deposited data

Results flagged for a closer look

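Among 285 groups of 5 libraries checked, 6 had a library whose gap to its nearest neighbour took up more than 0.71 of the group's range on the log2 scale, a limit that chance passes in about 1 in 20 groups. After 24 h of light, replicate 1 was lowest for ERF6, at 0.442 spike-scaled CPM against 0.803 to 0.885 in the others, and for WRKY33, at 1.85 against 3.08 to 3.75. Replicate 4 was lowest at 24 h for FHL, at 0.359 against 1.14 to 1.54. After 1 h of light, replicate 2 was highest for ACX4, at 236 against 84.4 to 93.7, and for YUC8, at 7.12 against 3.0 to 3.46. Replicate 1 was lowest at 1 h for the plastid gene ATCG00940, at 31.6 against 184 to 357. In each of these genes except ACX4, which was not called, the call stood without the library named.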

How the results depend on the processing

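Scaling over plant genes moved both counts and the median. Under TMM with the block 4774 genes were higher and 5208 lower with a median of -0.0575; under TMM without a block, an alternative added after seeing the data, 4441 and 4984 with -0.076; and with DESeq2's median-ratio factors 5003 and 4889 with -0.0223. By construction these scalings centre the plant genes. A test against a log2 fold change of 1 left 7143 higher and 410 lower. Without the replicate block the fly scaling gave 9958 higher and 607 lower genes and a median of 1.14. In replicates 1 and 2 alone 4212 genes were higher, in a fit with fewer libraries, and in replicates 3 to 5 alone 446 were lower. Leaving out each replicate number in turn gave 12117 to 15200 higher and 584 to 868 lower genes and medians of 1.11 to 1.44. TMM over fly genes, DESeq2 with fly factors, no filter on low counts, all 25 libraries with or without the block, and limma-trend stayed within 1.5 times of the counts given. The last was added because edgeR's prior degrees of freedom came out infinite. Those of limma-trend were infinite too, so it cannot check the use of 1 shared spread.

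The ratio of nuclear to fly counts was 1.32 on the log2 scale in replicates 1 and 2 (p = 0.333) and 2.07 in replicates 3 to 5 (p = 0.1), by exact permutation tests that could reach no smaller p. Leaving out each replicate number gave 1.69 to 1.98. The mitochondrial share changed by -0.91 in replicates 1 and 2 (p = 0.333) and by -2.12 in replicates 3 to 5 (p = 0.1), again the smallest p of these exact tests. Leaving out each replicate number gave -1.85 to -1.38 for it and -1.0 to -0.69 for the plastid share. The replicate block in an exact sign-flip test over 5 pairs gave 1.77 for the ratio, -1.64 for the mitochondrial share and -0.85 for the plastid share, each at the smallest p that 5 pairs allow, which lies above 0.05.

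Of 147 named genes, ATCG00600 not among them, 103 kept their direction and call in every alternative. Under the scalings over plant genes, the signs that turned were those of genes whose fly-scaled change lay near or below the median of all genes. With DESeq2's median-ratio factors, TMM without a block and TMM with the block, in this order, log2 fold changes were -1.04, -1.0 and -1.08 for ACX2, -0.92, -0.98 and -0.96 for CP12-3, -0.45, -0.51 and -0.49 for ELIP2, -0.12, -0.15 and -0.16 for HYH, -0.19, -0.34 and -0.23 for JAZ1, -0.37, -0.38 and -0.41 for NRPB1, -0.87, -1.18 and -0.90 for PAP1, -0.10, -0.16 and -0.13 for PDF2, -0.84, -0.94 and -0.88 for UBQ10 and -0.36, -0.39 and -0.40 for ZTL. LKP2 was -0.034 and -0.0186 under TMM without and with the block, and PIF3 -0.0191 without it. In replicates 1 and 2 alone ACX2 was -0.36, ATCG00900 0.13, CP12-3 -0.59, PAP1 -0.22 and UBQ10 -0.11. ACX4 was 0.23 in replicates 3 to 5, ACX2 -0.0292 to 0.41 when 1 replicate was left out and PAP1 -0.10 to 0.85. PAP1 was -0.12 without a block, in the 10 or in all 25 libraries. Apart from what the scalings do by construction, the cause was not tested. Fly totals of 74941 to 203390 counts at 24 h and 181692 to 717717 at 1 h bound the precision of every level, and genes under about 10 counts a library were not tested.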
